A study of Mus musculus with 6 samples.

Results

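The genes described here are 10 members of the BAR domain family, namely Cibar1, Bin1, Bin2, Bin3, Sh3gl1, Sh3glb1, Sh3glb2, Arfip1, Arfip2 and Fnbp1, out of 19938 genes measured. They were picked by name, and Cibar1, also written Fam92a, was already known to have the largest decrease in these arrays. All 10 were found in the annotation, each on 1 probe set with a single gene symbol. The study compared mouse T cell acute lymphoblastic leukemia (T-ALL) after tamoxifen or vehicle, to ask how deleting Zfx, a zinc finger transcription factor, alters gene expression. Tamoxifen arrays, labelled ZFX null, came from recipients given 5 mg of Tamoxifen by gavage on each of 3 days, and Vehicle arrays, labelled ZFX flox, from recipients given Vehicle. Dosing began 10 days after transplant, and GFP-positive leukemia cells were sorted 48 hours after the last Tamoxifen dose. Leukemias of both groups were driven by retroviral Notch-IC and arose from progenitors with a Zfx fl/y allele and with Cre-ER, a recombinase that tamoxifen switches on. The 3 independent leukemia lines 14843, 14844 and 14846 each gave 1 Tamoxifen and 1 Vehicle array, so each group held 3 arrays, and the precision is limited by that number. Hosts were irradiated at a sublethal dose, so they kept blood cells of their own. The promoter of Cre-ER is not given in the sources used here, and no animals given Tamoxifen without Cre-ER or without the floxed allele were among the samples. Drug, recombinase and loss of Zfx therefore cannot be told apart.

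BAR domains are elongated helical bundles that pair into curved dimers and lie against lipid membranes, where they sense or impose curvature. Proteins with such domains act in endocytosis, in the budding of vesicles from the Golgi, in autophagy and in the shaping of the cell cortex, and many carry SH3 domains that recruit dynamin, synaptojanin or regulators of actin. Classical and N-BAR domains bind strongly curved tubules, F-BAR domains shallower ones, and I-BAR domains bend membranes outward into protrusions.

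All values are log2 of the deposited intensity unless said otherwise. T cell markers were bright, since all 8 measured of the 10 listed (Cd3d, Cd3e, Cd3g, Cd247, Thy1, Cd8a, Cd4 and Ptcra) lay above the filter on dim genes, and their linear intensities summed to 43414 to 48101 in Tamoxifen arrays against 45430 to 52599 in Vehicle arrays. The sums were 580 to 653 against 503 to 979 for 4 B cell markers and 1705 to 2310 against 1624 to 2003 for 8 myeloid markers. For 4 erythroid markers they were 594 to 650 against 600 to 615. For 4 markers of stroma and endothelium they were 3147 to 3325 against 2912 to 3177. Pecam1 alone gave most of these last sums, with 2070 to 2310 in Tamoxifen arrays and 1830 to 2340 in Vehicle arrays. Within every line, the myeloid sum and the sum for stroma and endothelium were higher in the Tamoxifen array. The T cell, B cell and erythroid sums did not go one way in every line. All 8 T cell markers had fitted differences below 0, between -0.27 and -0.01. The part of these other cell types in the results was not tested. By limma, 0 of the markers of any list passed between treatments. An unadjusted p under 0.05 was found for 1 T cell marker, which was lower, and 2 myeloid markers, which were higher. The probe set of Zfx itself read 10.96, 10.98 and 10.86 in Tamoxifen arrays and 10.98, 10.90 and 10.72 in Vehicle arrays of lines 14843, 14844 and 14846. Its groups overlapped, but whether its probes lie in the deleted part is not given in the sources used here, so it does not check the labels.

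Cibar1 was far lower in the Tamoxifen array of each line. Its product, a BAR domain protein, binds Cby1 at the base of the primary cilium and has also been placed at the inner mitochondrial membrane. Cibar1 read 6.29, 6.46 and 6.22 in Tamoxifen arrays of lines 14843, 14844 and 14846, against 9.25, 9.04 and 8.97 in the Vehicle arrays of the same lines. The Tamoxifen arrays thus formed a tight low group and the Vehicle arrays a tight high group, with a gap of 2.51 between the highest Tamoxifen and the lowest Vehicle array. In linear intensity these values were 78.2, 88.3 and 74.4 in Tamoxifen arrays and 608, 527 and 502 in Vehicle arrays. The means were 6.32 ± 0.13 in Tamoxifen arrays and 9.09 ± 0.14 in Vehicle arrays (SD, n = 3 each). The measured values gave a fitted difference of -2.76 ± 0.08 (SE) and within-line differences of -2.96, -2.58 and -2.75. All Tamoxifen arrays lay below the filter on dim genes of 6.70, and the deposited values carry no detection call, so whether the Tamoxifen level is above background is not known. Set against that filter level in place of the Tamoxifen values, Cibar1 was at least 5.22-fold lower. It ranked first among the decreases of all 19938 genes. Since Cibar1 was chosen for this decrease, the values are a description and no test is attached to them. In bulk RNA of this kind, fewer cells that express a gene and less RNA per cell cannot be told apart.

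Cibar1 passed the filter on dim genes through its Vehicle arrays. The filter lay at a mean over the 6 arrays of 6.70, and the mean of Cibar1 in Tamoxifen arrays was below it. The other 9 members were above the filter on every array, with levels between 9.05 and 11.99. A gene that passes the filter through its high group alone has to differ between the groups.

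**Figure D1:**
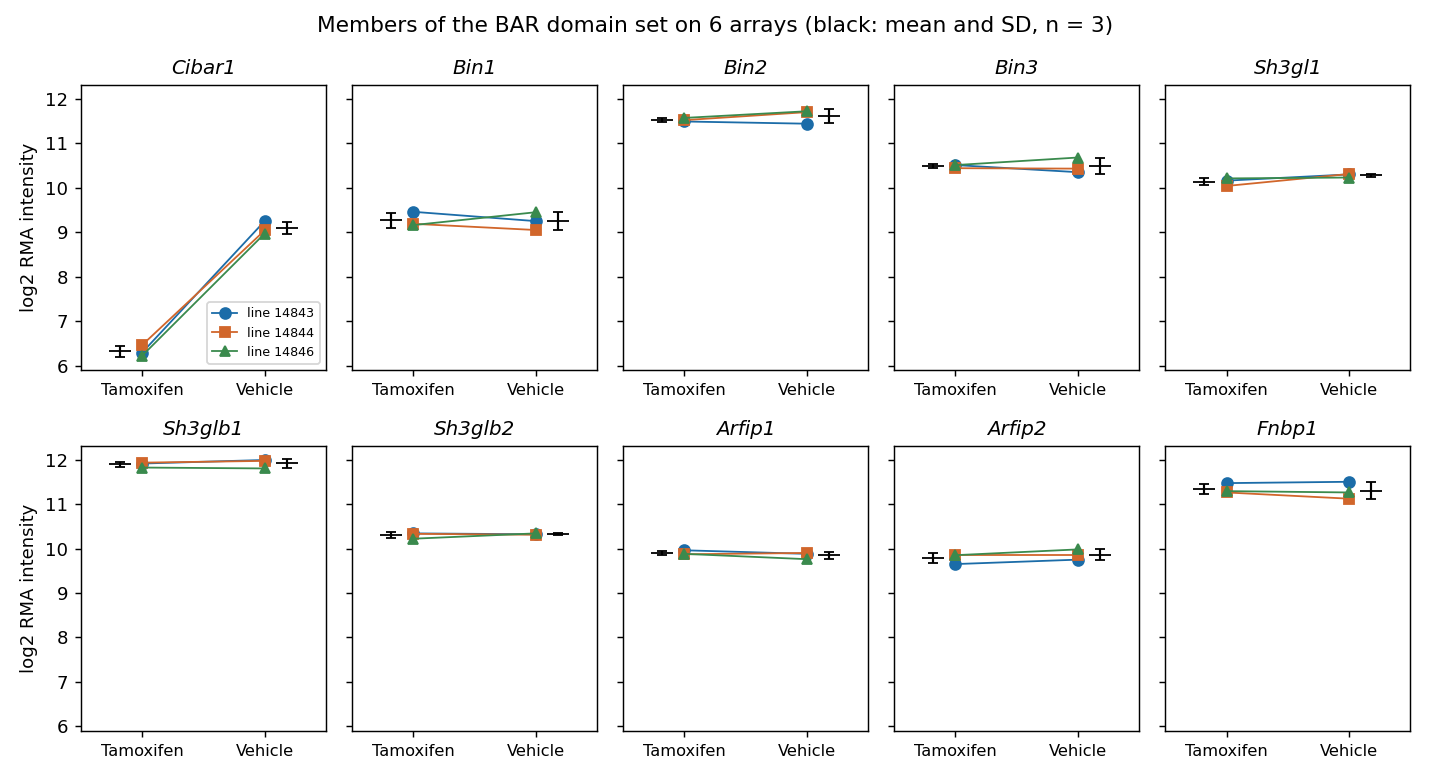
Log2 RMA intensity of the 10 BAR domain genes in Tamoxifen and Vehicle arrays, with the arrays of one leukemia line joined and the mean and SD of each group in black (n = 3). Cibar1 sits between 6.22 and 6.46 in Tamoxifen arrays and between 8.97 and 9.25 in Vehicle arrays, while the other 9 genes stay near one level.

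Of the 10 members, 1 passed an adjusted p of 0.05 between treatments, Cibar1, and over all 13956 tested genes 6.23% passed, 4.93% lower and 1.3% higher. As this contrast chose Cibar1, nothing is read from that count and no p between treatments is given for any member. Groups were free of overlap in 2 members, Cibar1 and Sh3gl1, against 23.7% of all tested genes. Over the other 9 members the fitted differences ran between -0.14 and 0.06, and their 27 within-line differences between -0.29 and 0.21. The median difference of the 10 members was -0.03, against 0.03 over all tested genes. Each within-line difference of Cibar1 was therefore several times larger in size than any of the others.

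The fitted differences of the Bin genes between treatments lay between -0.09 and 0.02, and each gene had within-line differences of both signs. Bin1, or amphiphysin 2, shapes the transverse tubules of muscle and binds the Myc protein. Bin1 read 9.46, 9.19 and 9.16 in Tamoxifen arrays and 9.25, 9.05 and 9.45 in Vehicle arrays of lines 14843, 14844 and 14846. The line 14846 array was the lowest under Tamoxifen and the highest under Vehicle, and the groups overlapped. The fitted difference of 0.02 ± 0.11 (SE) had the largest SE of the members, as the within-line values were 0.21, 0.13 and -0.29. Bin2, a relative enriched in leukocytes, read 11.49, 11.52 and 11.57 in Tamoxifen arrays and 11.44, 11.70 and 11.72 in Vehicle arrays. Its difference was -0.09 ± 0.07, and the Vehicle array of line 14843 was the lowest of the 6. Bin3 lacks the SH3 domain of Bin1. It read 10.51, 10.44 and 10.51 in Tamoxifen arrays and 10.35, 10.43 and 10.68 in Vehicle arrays. The mean of Bin3 was 10.49 in both groups, with an SD of 0.04 in Tamoxifen and 0.17 in Vehicle arrays.

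Among the endophilins, which couple membrane curvature to dynamin and synaptojanin through an SH3 domain, Sh3gl1 had the widest difference. Sh3gl1, or endophilin A2, read 10.16, 10.04 and 10.21 in Tamoxifen arrays and 10.30, 10.31 and 10.23 in Vehicle arrays of lines 14843, 14844 and 14846. All 3 Tamoxifen arrays were below all 3 Vehicle arrays, but in line 14846 by only 0.02. The fitted difference was -0.14 ± 0.06 (SE). Sh3glb1, endophilin B1 or Bif-1, links the autophagy complex of Becn1 and Uvrag to membranes and binds Bax. It read 11.91, 11.93 and 11.82 in Tamoxifen arrays and 11.99, 11.97 and 11.80 in Vehicle arrays. Line 14846 was the lowest of the 3 lines under either treatment, and the difference was -0.04 ± 0.05. Sh3glb2, endophilin B2, read 10.34, 10.33 and 10.22 in Tamoxifen arrays and 10.32, 10.31 and 10.34 in Vehicle arrays. Its difference was -0.03 ± 0.06, with only the Tamoxifen array of line 14846 standing below the others.

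The arfaptins bind the GTPases Arl1 and Arf1 at the trans-Golgi, and Arfip2 also binds Rac1. Arfip1 read 9.96, 9.87 and 9.88 in Tamoxifen arrays and 9.88, 9.90 and 9.76 in Vehicle arrays of lines 14843, 14844 and 14846, a difference of 0.06 ± 0.06 (SE). Arfip2 read 9.65, 9.85 and 9.85 in Tamoxifen arrays and 9.75, 9.85 and 9.98 in Vehicle arrays, a difference of -0.08 ± 0.05. Line 14843 had the lowest Arfip2 value under each treatment. Fnbp1, or FBP17, is the F-BAR member and recruits WASP and N-WASP to membranes. Fnbp1 read 11.47, 11.26 and 11.29 in Tamoxifen arrays and 11.50, 11.12 and 11.26 in Vehicle arrays, a difference of 0.05 ± 0.06. It was highest in line 14843 and lowest in line 14844 under both treatments.

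**Figure D2:**
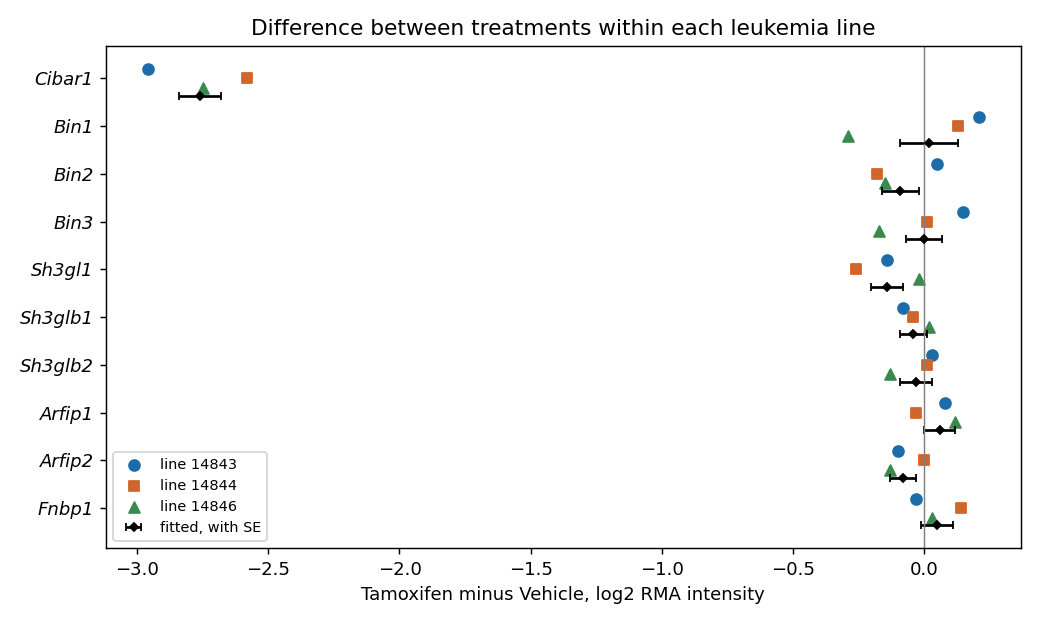
Tamoxifen minus Vehicle difference in log2 RMA intensity for each BAR domain gene, with 1 point per leukemia line and the fitted difference with its SE in black. The points of Cibar1 lie between -2.96 and -2.58, and the 27 points of the other 9 genes between -0.29 and 0.21.

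The leukemia lines could be compared on the members by a test, since line differences do not enter the treatment contrast. With limma's moderated F test, 0 of the 10 members were called between lines, against 3.11% of all tested genes. An unadjusted p under 0.05 was found for 2 of the 10 members and for 2688 of the 13956 tested genes. The smallest adjusted p was that of Fnbp1, 0.16 by limma. Its levels were 11.49 ± 0.02 in line 14843, 11.19 ± 0.10 in line 14844 and 11.28 ± 0.02 in line 14846 (SD, n = 2 arrays each). Each SD is over a Tamoxifen and a Vehicle array, so it holds any difference between treatments. Arfip2 followed, with line means of 9.70, 9.85 and 9.92 and an adjusted p of 0.26. The line means of Cibar1 were 7.77, 7.75 and 7.59, which spanned 0.17, with an adjusted p of 0.50 in that F test. Each of these means averages a Vehicle array with a Tamoxifen array below the filter on dim genes. The test therefore says little about the level of Cibar1 in the lines. Spans of the other members ran between 0.05 for Sh3glb2 and 0.30 for Fnbp1. A miss with 2 arrays a line does not show that the lines share a level.

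Other genes of the family were taken from a list of 64 BAR domain genes, of which 62 were measured and 48 tested, while 2 were not analysed here. Of the 48, 5 passed between treatments, 4 lower and 1 higher, which is 10.4% against 6.23% of all tested genes, and their median difference was -0.01 against 0.03. Without line as a block, 2 of the 48 passed. Without line 14843, 14844 or 14846, the numbers were 2, 0 and 3. The fits without a line have fewer arrays, and the fit without the block leaves differences between lines in the residual. Why the counts changed was not tested. Changes to the filter, scaling, moderation or probe set rule gave 6 or 7 calls. No difference between the family and other genes is drawn from the counts. Cibar2, the closest relative of Cibar1, was too dim to be tested, with means of 6.16 ± 0.05 in Tamoxifen arrays and 6.11 ± 0.06 in Vehicle arrays (SD, n = 3 each).

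Fcho2 had the largest decrease among these 48. Its product is an F-BAR protein that helps to start clathrin-coated pits. Fcho2 read 8.94, 9.23 and 9.33 in Tamoxifen arrays against 10.14, 10.12 and 9.83 in Vehicle arrays of lines 14843, 14844 and 14846. The groups did not overlap, and the line 14846 pair was the closest. Fcho2 fell 1.82-fold, by 0.86 ± 0.13 on the log2 scale (SE, limma adjusted p = 0.026). The adjusted p was 0.15 without line 14844. Pstpip1, an F-BAR adaptor of immune cells that binds WASP and the phosphatase PTP-PEST, read 9.47, 9.32 and 9.34 in Tamoxifen arrays against 9.92, 9.62 and 10.01 in Vehicle arrays. Pstpip1 fell by 0.47 ± 0.08, with a limma adjusted p of 0.034. It lost the call without line as a block, at 0.098, and without line 14843, 14844 or 14846, at 0.079, 0.097 and 0.058.

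Sh3bp1, a GTPase-activating protein for Rac with an N-BAR domain, read 9.43, 9.43 and 9.35 in Tamoxifen arrays against 9.75, 9.75 and 9.88 in Vehicle arrays of lines 14843, 14844 and 14846. Sh3bp1 fell by 0.39 ± 0.07 (SE, limma adjusted p = 0.033), but without line 14843, 14844 or 14846 the adjusted p was 0.062, 0.14 and 0.064. All its Tamoxifen arrays were below all its Vehicle arrays. Appl1, an endosomal adaptor with a BAR and a PH domain, read 10.41, 10.32 and 10.12 in Tamoxifen arrays against 10.69, 10.71 and 10.54 in Vehicle arrays. Appl1 fell by 0.36 ± 0.06, with a limma adjusted p of 0.026, and of 0.16 and 0.066 without line 14844 or 14846 and 0.12 without the block. Line 14846 had the lowest Appl1 value in each group. Arhgap26, or GRAF1, a GTPase-activating protein of endocytic carriers, was the only one of the 48 called higher. It read 9.45, 9.64 and 9.52 in Tamoxifen arrays against 8.80, 9.12 and 9.24 in Vehicle arrays. The rise was 0.49 ± 0.08, with a limma adjusted p of 0.034, and of 0.079 and 0.18 without line 14843 or 14844 and 0.12 without the block.

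By class, 1 of 6 tested classical and N-BAR genes passed, 2 of 9 BAR-PH genes and 2 of 17 F-BAR genes. By the same limma fit, 0 of 10 sorting nexins, which coat retrieval tubules on endosomes, 0 of 5 I-BAR genes and 0 of 1 arfaptin-like gene passed, while 1, 0 and 0 of them had an unadjusted p under 0.05. Snx33 and Snx5 gave 0.30 ± 0.07 and 0.14 ± 0.06 (SE), with limma adjusted p-values of 0.064 and 0.24. The I-BAR genes Mtss1 and Mtss2 gave 0.10 ± 0.05 and -0.14 ± 0.08, and Pick1, an adaptor of glutamate receptors, gave -0.02 ± 0.07.

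**Figure D3:**
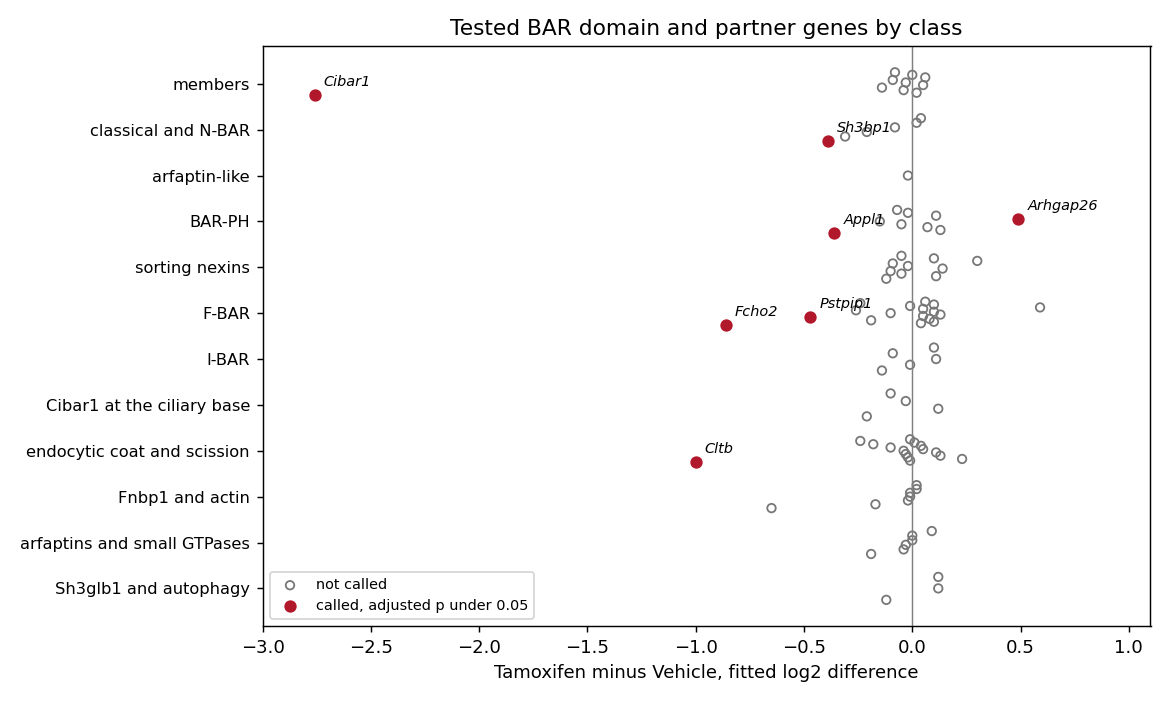
Fitted Tamoxifen minus Vehicle difference on the log2 scale for tested BAR domain genes and their partners, by class (vertical offsets within a class only separate the points). Filled points passed an adjusted p of 0.05 in limma. They are Cibar1 at -2.76, 5 other BAR domain genes between -0.86 and 0.49, and the partner Cltb at -1.0. Cibar1 was picked for this decrease, so its filled point is a description and not a test.

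Between lines, limma's moderated F test called 4 of the 48 other BAR domain genes, which is 8.33% against 3.11% of all tested genes. They are named here after their values were seen. Fchsd2, an F-BAR protein of endocytic actin, averaged 10.52, 10.32 and 9.97 in lines 14843, 14844 and 14846, with an adjusted p of 0.026. Mtss1, an I-BAR protein, averaged 10.66, 10.54 and 10.15, with an adjusted p of 0.038, and was thus also lowest in line 14846. Asap2, a GTPase-activating protein for Arf, averaged 10.22, 9.47 and 10.18, and the I-BAR gene Mtss2 averaged 8.86, 8.16 and 8.53, each with an adjusted p of 0.045. Line 14844 was the lowest for this pair. Without line 14843, 14844 or 14846 the adjusted p of Fchsd2 was 0.071, 0.060 and 0.26, that of Mtss1 0.060, 0.070 and 0.47, that of Asap2 0.039, 0.83 and 0.024, and that of Mtss2 0.15, 0.19 and 0.019. Asap2 and Mtss2 also lost their calls without the filter on dim genes.

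Markers of other cells differed between lines as well. By the same F test, 3 of 6 tested myeloid markers and 1 of 4 tested markers of stroma and endothelium were called, against 0 of 8 T cell, 0 of 2 B cell and 0 of 3 erythroid markers, and 6, 3, 2, 0 and 0 of these lists had an unadjusted p under 0.05. Itgam averaged 9.75, 8.78 and 8.77 in lines 14843, 14844 and 14846, and was thus highest in line 14843, with an adjusted p of 0.020 by limma. Lyz2 averaged 8.0, 8.72 and 8.55 (0.036) and S100a8 7.32, 8.47 and 7.58 (0.0072), both highest in line 14844. Col1a2, a collagen chain of stromal cells, averaged 8.52, 9.49 and 8.23 (0.011), also highest in line 14844. The linear intensities of the 8 measured myeloid markers summed to 2043 in the Tamoxifen and 1841 in the Vehicle array of line 14843, 2310 and 2003 in line 14844, and 1705 and 1624 in line 14846. The part of these cells in the differences between lines was not tested.

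Partners of the members were taken from 5 lists of 38 genes, of which 35 were tested, while Picalm and Bax were not analysed here. Of these, 1 passed between treatments and was lower, 2.86% against 6.23% of all tested genes, with a median of -0.01. It was Cltb, the clathrin light chain b, which read 8.90, 9.31 and 8.83 in Tamoxifen arrays against 10.04, 9.99 and 10.03 in Vehicle arrays of lines 14843, 14844 and 14846. The Vehicle arrays lay close together, with an SD of 0.03, and all Tamoxifen arrays were well below them. Cltb fell 2.01-fold, by 1.0 ± 0.11 on the log2 scale (SE, limma adjusted p = 0.012), and it kept the call in each of 10 other settings. The heavy chain Cltc and the light chain Clta gave 0.11 ± 0.05 and -0.03 ± 0.05, with limma adjusted p-values of 0.27 and 0.78, and were picked for comparison after their values were seen.

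The 4 ciliary base partners of Cibar1 did not pass. Cep164, a protein of the distal appendages of the centriole, gave -0.21 ± 0.05 (SE, limma adjusted p = 0.080), and Dzip1l gave 0.12 ± 0.05 (0.23). Cby1, the direct partner of Cibar1, read 9.59 in Tamoxifen and 9.69 in Vehicle arrays on average, a difference of -0.10 ± 0.07. Among 7 genes of the actin machinery that Fnbp1 recruits, Daam1, a formin, gave -0.65 ± 0.25 and Wasl, or N-WASP, gave -0.17 ± 0.09. Each value rested on 1 line. The within-line differences of Daam1 were -0.32, -0.19 and -1.45 in lines 14843, 14844 and 14846, and its fitted difference without line 14846 was -0.25. Those of Wasl were -0.41, -0.08 and -0.02, and its fitted difference without line 14843 was -0.05. Among 6 small GTPases around the arfaptins, Arf5 gave -0.19 ± 0.06 and Arl1, the Golgi anchor of the arfaptins, 0.09 ± 0.06. Of the autophagy partners of Sh3glb1, Uvrag gave -0.12 ± 0.05 and Becn1 0.12 ± 0.05. Their adjusted p-values by limma lay between 0.15 and 0.43 for Daam1, Wasl, Arf5, Arl1, Uvrag and Becn1, and 1 gene in each of the 4 lists without a call had an unadjusted p under 0.05.

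The 5 tested genes outside the members whose log2 values followed Cibar1 most closely over the 6 arrays were Ids, Srr, Usp40, Clpx and Fbf1. The likeness was Pearson's r, which ignores the size of a change. It was 0.9997 for Ids, 0.998 for Srr, 0.9978 for Usp40, 0.9976 for Clpx and 0.9967 for Fbf1. The 6 arrays share 3 leukemias and fall in a low and a high group, so each r mostly reflects that separation. Ids, the lysosomal iduronate sulfatase, read 9.47, 9.51 and 9.46 in Tamoxifen arrays and 9.97, 9.92 and 9.91 in Vehicle arrays of lines 14843, 14844 and 14846. Srr, serine racemase, read 7.73, 7.73 and 7.64 in Tamoxifen arrays and 8.97, 8.89 and 8.95 in Vehicle arrays. The differences were far smaller than that of Cibar1, at -0.45 ± 0.05 (SE) for Ids, -1.24 ± 0.05 for Srr and -0.93 ± 0.05 for Usp40, a deubiquitinase. Clpx, a mitochondrial chaperone, and Fbf1, a protein of centriolar appendages, differed by -0.46 ± 0.05 and -0.60 ± 0.05. Their choice rested on likeness to a gene picked for its decrease, so no test is given for them. Among the BAR domain genes the closest were Sh3bp1, Fcho2 and Acap3, at r of 0.96, 0.95 and 0.90, and among the members Sh3gl1, at 0.77.

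**Figure D4:**
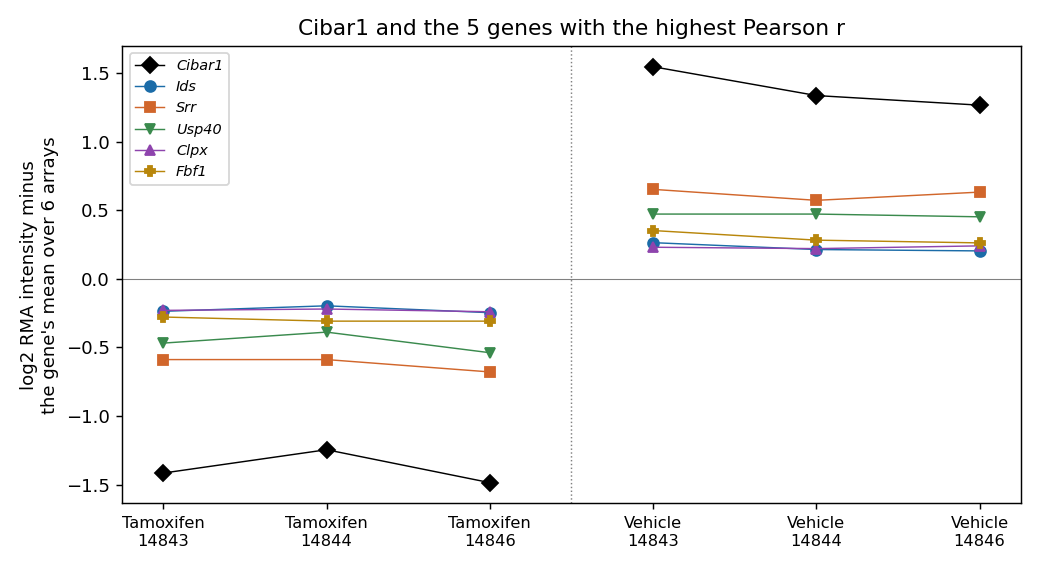
Log2 RMA intensity of Cibar1 and of the 5 genes with the highest Pearson r, minus the mean of each gene over the 6 arrays, for the Tamoxifen arrays and then the Vehicle arrays of each line. All 6 genes are low in Tamoxifen and high in Vehicle arrays, and Cibar1 spans the widest range.

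Promoter windows of 300 bases, 250 before to 50 after the start of the gene, were read from RefSeq for GRCm38.p6 to set members beside related genes that fell. Of the members, 6 had 1 or more windows, while Cibar1, Bin1, Bin2 and Bin3 were not matched. The windows were searched for AGGCCT, the core of the reported Zfx motif, which reads the same on both strands. It was in 0 of the 9 member windows, and in 10.3% of all 32851 windows. It was in 0 of the 3 windows found for other BAR domain genes or partners that passed, and in 0 of the 5 windows of the genes most like Cibar1. Its first 5 letters on either strand, AGGCC or GGCCT, were in 5 of the 9 member windows and in 50.6% of all windows. The 5 windows belong to 3 of the 6 members, Sh3gl1, Sh3glb1 and Arfip1. The windows of Sh3gl1 overlap each other, as do those of Sh3glb1, so matches that they share are counted in both. Each AGGCCT holds both 5-letter strings. A match is a description only, and its absence says no more than that these letters are not in the window.

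Shown are Sh3gl1, the member with the widest difference after Cibar1, Fnbp1, the F-BAR member without a match, and Fcho2, the F-BAR gene that fell most, each 5′ to 3′ on the strand of the gene, with AGGCC or GGCCT in capitals. The Sh3gl1 window is chr17:56036610-56036909, minus strand, that of Fnbp1 chr2:31141959-31142258, minus strand, and that of Fcho2 chr13:98815400-98815699, minus strand, all in GRCm38.p6.
Sh3gl1: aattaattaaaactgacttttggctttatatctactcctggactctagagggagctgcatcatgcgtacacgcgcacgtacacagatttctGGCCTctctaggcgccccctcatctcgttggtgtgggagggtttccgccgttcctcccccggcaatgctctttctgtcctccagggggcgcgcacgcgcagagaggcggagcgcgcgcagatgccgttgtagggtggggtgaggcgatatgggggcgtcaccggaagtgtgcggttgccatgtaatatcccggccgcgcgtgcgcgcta
Fnbp1: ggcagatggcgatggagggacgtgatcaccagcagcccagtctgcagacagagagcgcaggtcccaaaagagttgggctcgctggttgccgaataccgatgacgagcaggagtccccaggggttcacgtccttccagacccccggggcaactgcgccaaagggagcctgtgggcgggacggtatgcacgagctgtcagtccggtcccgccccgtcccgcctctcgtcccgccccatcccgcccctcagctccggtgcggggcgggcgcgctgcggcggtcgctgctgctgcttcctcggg
Fcho2: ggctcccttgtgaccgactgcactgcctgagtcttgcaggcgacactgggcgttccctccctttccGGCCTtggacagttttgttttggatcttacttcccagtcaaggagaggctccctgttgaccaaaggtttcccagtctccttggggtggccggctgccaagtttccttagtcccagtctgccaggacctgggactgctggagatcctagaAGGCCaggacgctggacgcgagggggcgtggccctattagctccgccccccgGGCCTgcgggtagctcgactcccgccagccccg
Sh3gl1 held 1 match, which began at -159 from the start of the gene. Fcho2 held 3, which began at -184, -35 and 18. Fnbp1 held 0 in this window.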

How the data were processed

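The authors deposited probe set intensities on a linear scale, which come from RMA in Affymetrix Expression Console 1.1, per the submitters' processing notes. For further settings, the sources used here give nothing. Because RMA equalises the distributions of the arrays after removing background, a difference in overall signal is lost. Median intensities of the arrays lay between 201.6 and 208.3, and correlations between arrays between 0.991 and 0.996.

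Here the log2 was taken. Probe sets with 1 gene symbol, 21789 of 35556, were kept, and 21698 were found in RefSeq by Entrez identifier. Probe sets with several symbols, 1621, or unnamed here, 12146, were left out. The probe set with the highest mean stood for each of 19938 genes. Genes at or above the 30th percentile of means, 6.70, were tested, 13956 in all. Limma 3.58.1 in R 4.3.3 (lmFit, eBayes) compared treatments with line as a block, two-sided, with Benjamini-Hochberg adjustment over all tested genes and a threshold of 0.05. Each gene had 2 residual degrees of freedom, and the moderation added 3.47. The series design gives the pairing, and deviations from group means correlated at 0.64, 0.68 and 0.68 within lines. Lines were compared by the moderated F test. The fit was tested on simulated data.

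Members and lists were chosen with earlier results of these data known. Named genes are the members, Zfx, from each list up to 4 called genes or else the 2 with the smallest p, and the 5 genes with the highest Pearson r with Cibar1. Alternatives changed the block, filter, scaling, moderation, probe set rule or left out a line.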

Additional observations from a re-analysis of the deposited data

How the results depend on the processing

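Cibar1 kept its direction in 10 other settings, between -2.86 and -2.66 on the log2 scale. The 9 other members were called in 0 of the 10 settings by limma, where the analysis reported called 6.23% of all tested genes. In that analysis 0 of the 9 had an unadjusted p under 0.05, against 3328 of all 13956 tested genes. As above, nothing is read from these counts of members between treatments. Without the replicate block, that is without pairing by line, 295 genes were called in place of 870. Other BAR domain genes called then numbered 2 in place of 5. Changes to the filter, scaling, moderation or probe set rule called 811 to 1082 genes, with 6 or 7 other BAR domain genes among them. With each line left out in turn, the calls between treatments numbered 83 to 671, those of other BAR domain genes 0 to 3, and those between lines 197 to 455, where 434 were called with all arrays. The calls between treatments were 493 without line 14843, 83 without line 14844 and 671 without line 14846. These fits have fewer residual degrees of freedom than the fit with all arrays, but the same number of arrays as each other. Why the count was lowest without line 14844 was not tested. The partner count stayed at 1 in all 10 settings. Members near 0 changed sign. Bin1 gave -0.01 after median centring and -0.08 to 0.17 with a line left out. With quantile normalization Bin3 gave 0.03 and Sh3glb2 0.02, and with a line left out they gave -0.08 to 0.08 and -0.06 to 0.02. The cause was not tested. Array data have no read depth. Precision is limited by 3 arrays a group, and the level of Cibar1 in Tamoxifen arrays by its nearness to the dim end of the signal.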
